A study of Arabidopsis thaliana with 40 samples.

Results

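Transcript levels in 2 Arabidopsis thaliana lines named for genes of plastid cysteine synthesis, oastlB and serat2;1, were compared directly after high light. The comparison takes the 4 arrays whose titles name oastlB after high light and the 4 whose titles name serat2;1 after high light, 8 of the 40 arrays of the series, with no wild-type array in either group. The other 32 arrays entered only the shared estimate of the spread. Both groups were shoots of plants grown in soil for 4 weeks (28 days) in cycles of 8 h light and 16 h darkness. High light (HL) lasted 6 h at 800 µmol quanta m-2 s-1, and 4 further arrays of each line came from plants kept in normal light (NL) of 80 µmol quanta m-2 s-1. The labels call the samples biological replicates. The design text calls the material leaf, and the labels give neither the alleles nor the kind of mutation. The other arrays of the series hold wild type (WT), 2cysprx and cyp20-3 in both lights, 4 arrays per group.

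Cysteine is made from O-acetylserine and sulphide. Serine acetyltransferase (SERAT) makes O-acetylserine, and O-acetylserine(thiol)lyase (OAS-TL) joins it with sulphide, and the 2 enzymes bind each other in the cysteine synthase complex of plastids, mitochondria and cytosol. OASB is the plastid OAS-TL and SERAT2;1 the plastid serine acetyltransferase. By their names, the 2 lines are thus affected in the same compartment at neighbouring steps of the pathway. In plastids the complex is also linked to redox regulation through the cyclophilin CYP20-3.

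The deposited values, on a log2 scale, cover 27826 probe sets with 1 locus code each. Differences are oastlB minus serat2;1 on the log2 scale, as difference ± standard error from the limma fit of all 40 arrays, with 4 arrays per group. This standard error uses the spread shared by all 10 groups, not that of the 8 arrays compared. For AT1G07400 it was 0.56 in both lights. The SDs of oastlB and serat2;1 for this gene were 1.79 and 0.57 in high light and 0.18 and 0.45 in normal light. Calls are an adjusted p under 0.05 in a limma fit across all probe sets. In the fit of all 40 arrays 336 probe sets (1.21%) were called in high light, of which 174 (0.625%) were higher and 162 (0.582%) lower in oastlB. The median difference over all probe sets was 0.00, and 35 of the called probe sets (0.126%) differed by 2-fold or more, 24 higher and 11 lower. The sizes among the called ran from 0.29 to 2.72 for higher levels and from -0.29 to -4.80 for lower levels. Values of the 4 oastlB arrays lay above all 4 serat2;1 arrays for 154 of the 174 and below for 142 of the 162. Over all probe sets, 2.59% and 2.52% were separated in these ways. These calls rest on the spread shared by all 10 groups: in a limma fit of the 8 arrays alone only OASB was called, and the other 36 called genes named below by rule had adjusted p of 0.0574 to 0.467. In the fit of all arrays 3018 probe sets had an unadjusted p under 0.05.

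**Figure D1:**
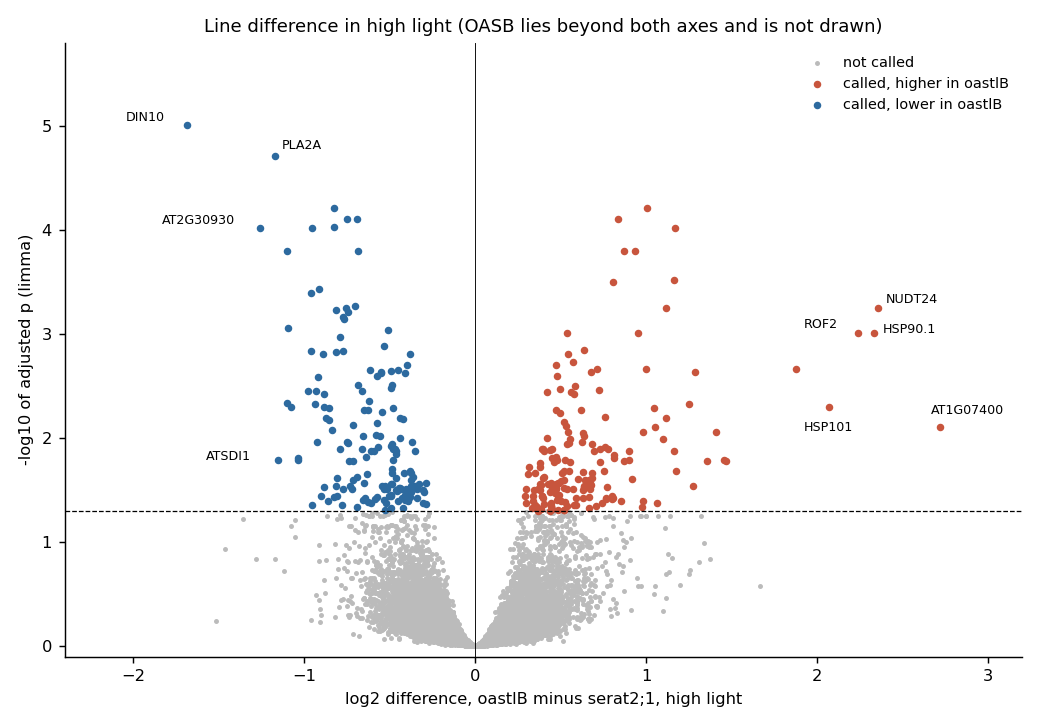
Line difference in high light for each probe set: log2 difference (oastlB minus serat2;1) on the x axis, -log10 of the limma adjusted p on the y axis, with the dashed line at an adjusted p of 0.05. Red points are the 174 called higher in oastlB and blue points those called lower (162, of which OASB, at -4.80, is outside the axes). AT1G07400 lies farthest to the right at 2.72, and DIN10 farthest to the left of the points drawn, at -1.69.

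OASB (AT2G43750) carried the largest difference and checked the label of the oastlB arrays. It stood at 4.34, 4.67, 4.57 and 3.44 in replicates 1 to 4 of oastlB and at 9.06, 9.08, 9.08 and 8.99 in serat2;1 in high light (-4.80 ± 0.14, adjusted p = 9.44e-24). In normal light it stood at 4.79, 4.64, 4.61 and 4.69 against 9.41, 9.27, 9.17 and 9.13. Every oastlB array was low, and no values of the lines overlapped in either light.

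SERAT2;1 (AT1G55920) showed no lower level under the label serat2;1. It stood at 6.52, 6.70, 6.53 and 6.65 in oastlB and at 6.92, 6.58, 6.82 and 6.93 in serat2;1 (-0.21 ± 0.14, adjusted p = 0.631), with overlapping values, and at 6.34 ± 0.08 (SD) in WT. The sources used here do not say where its probes lie relative to the mutation, so the label serat2;1 has no check by its own transcript. Below, serat2;1 means the arrays so labelled, and every direction given rests on that label.

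Of the 13 measured members of the cysteine synthase list, OASB alone was called. The cytosolic OAS-TL OASA1 differed by 0.01 ± 0.08 and the mitochondrial OASC by -0.08 ± 0.14 (adjusted p = 0.991 and 0.918). The mitochondrial cyanoalanine synthase CYSC1 differed by -0.04 ± 0.07, CYSD1 by -0.06 ± 0.11 and CYP20-3 by -0.07 ± 0.11. The plastid S-sulphocysteine synthase CS26 differed by -0.23 ± 0.11 (adjusted p = 0.412). Among serine acetyltransferases, the cytosolic SERAT1;1 differed by 0.23 ± 0.09, the mitochondrial SERAT2;2 by 0.11 ± 0.10, ATSERAT3;1 by -0.07 ± 0.14 and SERAT3;2 by 0.05 ± 0.25. None of these passed the test. DES1, a cytosolic L-cysteine desulfhydrase, was at 4.53, 4.45, 4.27 and 4.88 in oastlB and 4.07, 3.88, 3.73 and 3.87 in serat2;1. Its values did not overlap, but the difference of 0.65 ± 0.20 did not pass the test (adjusted p = 0.133).

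The pathway around cysteine held 1 called gene outside the complex. None of 12 measured genes of sulphate activation and reduction was called, nor any of 11 sulphate transport genes, 14 of glutathione synthesis and turnover, 9 of methionine and S-adenosylmethionine synthesis or 12 of photorespiration and serine supply. The list medians were 0.06, 0.11, -0.12, 0.02 and 0.05. APR1, APR2 and APR3, the adenylylsulphate reductases, differed by -0.03, 0.05 and -0.03 in this comparison. Of 10 sulphur starvation markers 1 fell: ATSDI1 (AT5G48850, sulphur deficiency-induced 1), known as a repressor of glucosinolate synthesis, was at 3.97, 3.88, 3.73 and 3.38 in oastlB and at 4.79, 5.49, 5.21 and 4.08 in serat2;1 (-1.15 ± 0.26, adjusted p = 0.0161). All oastlB values lay below all serat2;1 values, while WT stood at 3.79 ± 0.19 (SD). LSU1, another transcript of sulphur starvation, differed by -0.03 ± 0.22, and the list median was 0.05. The 1 call among 10 stands beside 0.582% of all probe sets called lower. The call of ATSDI1 was lost without oastlB replicate 4 or serat2;1 replicate 2 or 3.

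Some chaperone transcripts were called higher in oastlB. Of the 12 largest called differences upward with no overlap between the lines, 6 came from the large chaperone and small heat shock lists. Heat shock proteins fold, hold or disaggregate damaged proteins, and their genes are known to be induced by heat and by strong light. Of 21 measured large chaperones and cochaperones 8 were called, all higher in oastlB, against a background of 0.625% called higher over all probe sets. The list median was 0.41, and 20 of the 21 were above 0.

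HSP90.1 (AT5G52640), the heat-inducible cytosolic HSP90, stood at 7.45, 9.49, 7.35 and 7.24 in oastlB and at 5.76, 5.85, 5.26 and 5.33 in serat2;1. This is a 5.03-fold difference (2.33 ± 0.39, adjusted p = 0.000975). ROF2 (AT5G48570), a peptidyl-prolyl isomerase of the FKBP type, stood at 8.25, 10.46, 8.08 and 8.42 against 7.13, 6.55, 6.32 and 6.25 (2.24 ± 0.38, adjusted p = 0.000975). In both genes oastlB replicate 2 was far above the other 3, and these were themselves above every serat2;1 array.

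HSP101 (AT1G74310), which resolves protein aggregates and is needed for acquired heat tolerance, stood at 6.55, 8.79, 6.37 and 6.47 in oastlB and at 5.17, 5.08, 4.89 and 4.76 in serat2;1 (2.07 ± 0.41, adjusted p = 0.00505). The cytosolic HSP70 (AT3G12580) stood at 9.77, 11.70, 10.03 and 9.89 against 8.65, 8.32, 8.42 and 8.49 (1.88 ± 0.34, adjusted p = 0.00217). The same array, replicate 2, was again highest.

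The other 4 called members were chosen for naming after their values were seen. AT3G09440 was higher by 0.81 ± 0.12 (adjusted p = 0.000316), MBF1C, a coactivator needed for heat tolerance, by 1.06 ± 0.27 (adjusted p = 0.0419) and ROF1, a relative of ROF2, by 0.52 ± 0.14 (adjusted p = 0.0493). HSC70-1, the constitutive cytosolic HSP70, was higher by 0.34 ± 0.09 (adjusted p = 0.0402). Among the members not called were some located in plastids or the endoplasmic reticulum: CPHSC70-1 differed by -0.09, HSP90.5 by 0.03, CLPB3 by 0.20, BIP1 by 0.10 and BIP2 by 0.23. Further members not called are not given here, so these values show no pattern by compartment.

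Of 15 listed small heat shock proteins 2 were called higher, with a list median of 0.70 and 14 above 0. The list sat low on the arrays, with 13 of the 15 below the median probe set. A fit of the brighter probe sets only held 0 calls in this list. AT1G07400 stood at 5.61, 8.98, 5.45 and 5.21 in oastlB and at 4.33, 3.69, 3.41 and 2.95 in serat2;1, the largest difference in this direction (2.72 ± 0.56, 6.58-fold, adjusted p = 0.00782). AT5G51440 stood at 4.77, 6.83, 4.72 and 5.17 against 3.95, 3.65, 4.23 and 3.83 (1.46 ± 0.33, adjusted p = 0.0161). Neither gene's values overlapped between the lines. HSP17.6II (1.25), HSP17.6A (1.2) and HSP23.6-MITO (1.11) had differences of more than 1 but did not pass the test (adjusted p = 0.20, 0.26 and 0.34).

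None of 19 heat shock transcription factors was called. HSFA2, the factor that prolongs the heat response, stood at 4.92, 5.49, 4.73 and 4.01 in oastlB and at 3.57, 3.70, 3.12 and 3.53 in serat2;1. The lines did not overlap, but the difference of 1.31 ± 0.43 did not pass the test (adjusted p = 0.156). HSFB1 missed it by less (0.62 ± 0.16, adjusted p = 0.0521).

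oastlB replicate 2 set part of the size of these differences. The mean level of the 21 large chaperones was 7.48, 8.22, 7.43 and 7.31 in oastlB and 7.07, 6.97, 6.78 and 6.74 in serat2;1, so the other 3 oastlB arrays were also above all serat2;1 arrays. For the 15 small heat shock proteins it was 3.82, 5.44, 3.82 and 3.92 against 3.49, 3.34, 3.52 and 3.50. Without replicate 2, HSP90.1 differed by 1.79 (adjusted p = 0.00683), ROF2 by 1.69 (adjusted p = 0.00592), HSP70 by 1.43 (adjusted p = 0.0174), HSP101 by 1.49 (adjusted p = 0.0356) and AT1G07400 by 1.83 (adjusted p = 0.045). AT5G51440 then differed by 0.97 and lost its call (adjusted p = 0.0919), as it also did without serat2;1 replicate 2. The count of large chaperones called fell from 8 to 5 without that array, and also without oastlB replicate 3 or without any of serat2;1 replicates 2, 3 and 4. WT arrays were themselves widely spread in high light, with HSP90.1 at 7.06 ± 1.16 (SD), HSP101 at 7.23 ± 1.3 and AT1G07400 at 6.43 ± 1.33, each mean nearer to oastlB than to serat2;1.

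**Figure D2:**
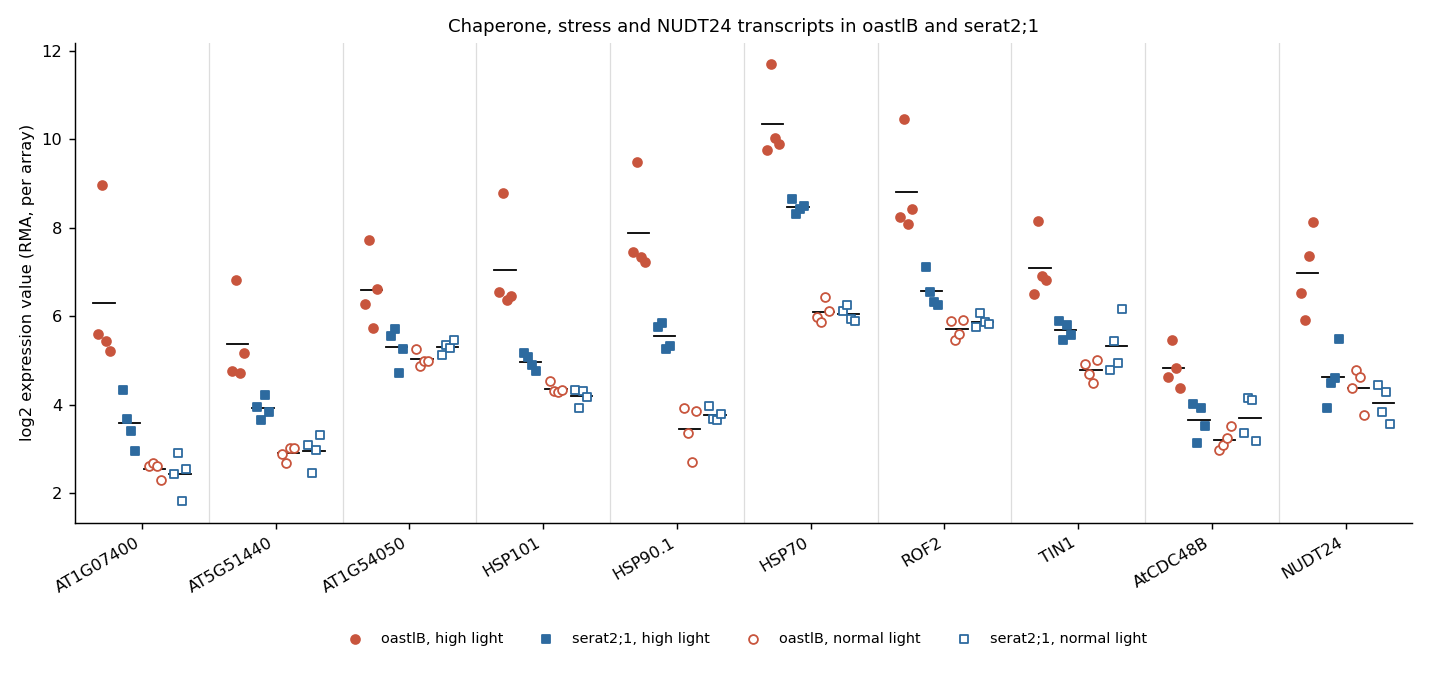
Log2 values of 10 genes higher in oastlB than in serat2;1 in high light, 1 point per array and a black bar at the mean of each group of 4. Filled points are high light and open points normal light. For HSP90.1 the oastlB arrays in high light sit at 7.24 to 9.49 and the serat2;1 arrays at 5.26 to 5.85, while the lines overlap in normal light.

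The other 6 of the 12 largest called differences upward with no overlap were on neither list. The lists need not hold every chaperone or small heat shock gene, so being off them does not place a gene outside these families. NUDT24 (AT5G19470), a member of the Nudix hydrolase family, stood at 6.52, 5.91, 7.37 and 8.13 in oastlB and at 3.93, 4.49, 4.60 and 5.49 in serat2;1 (2.36 ± 0.38, 5.13-fold, adjusted p = 0.00056). Its high arrays were replicates 3 and 4, not replicate 2, and WT stood at 4.21, with the serat2;1 arrays. It was called without each of the 8 arrays in turn.

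TIN1 (AT5G64510, tunicamycin induced 1), a gene of the endoplasmic reticulum stress response, stood at 6.51, 8.15, 6.91 and 6.83 against 5.88, 5.47, 5.81 and 5.59 (1.41 ± 0.29, adjusted p = 0.0088). AtCDC48B, an AAA-ATPase of the family that extracts proteins for degradation, stood at 4.62, 5.46, 4.83 and 4.39 against 4.03, 3.13, 3.92 and 3.52 (1.18 ± 0.27, adjusted p = 0.0208). Both were again highest in oastlB replicate 2, and no values of the lines overlapped. AT1G71000 (1.47 ± 0.33), AT1G43910 (1.28 ± 0.24) and AT1G54050 (1.28 ± 0.31) complete the 12 and are given by locus only. Levels of AT1G43910 were low, with means of 3.45 in oastlB and 2.17 in serat2;1, where the median probe set stood at 4.75. Without oastlB replicate 2, TIN1 differed by 1.06 (adjusted p = 0.0609), AtCDC48B by 0.96 (adjusted p = 0.099), AT1G71000 by 1.32 (adjusted p = 0.0678) and AT1G54050 by 0.89 (adjusted p = 0.163), while AT1G43910 kept its call without each array in turn. The calls of AtCDC48B (serat2;1 replicates 2 and 4), AT1G71000 (serat2;1 replicate 3) and AT1G54050 (oastlB replicate 4, serat2;1 replicates 3 and 4) were also lost without other arrays.

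Some genes of flavonoid synthesis were called higher in oastlB. The flavonoid pathway starts from phenylalanine, makes flavonols and, in its late branch, the red anthocyanins that build up in leaves under strong light. Of 6 phenylpropanoid entry enzymes 2 were called higher, of 12 early flavonoid genes 4, and of 21 late anthocyanin genes and regulators 2, with none lower, beside 0.625% of all probe sets called higher. The medians were 0.37, 0.48 and 0.44, and 5, 12 and 17 members were above 0.

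At the entry, PAL2, a phenylalanine ammonia-lyase, stood at 7.08, 6.90, 6.91 and 7.09 in oastlB and at 6.54, 6.55, 6.14 and 6.71 in serat2;1 (0.51 ± 0.12, adjusted p = 0.0215). 4CL3, a 4-coumarate:CoA ligase, stood at 5.45, 5.68, 5.72 and 5.64 against 5.08, 4.92, 5.17 and 5.12 (0.55 ± 0.12, adjusted p = 0.0111). All oastlB arrays lay above all serat2;1 arrays in both genes. 4CL3 lost its call without serat2;1 replicate 2, and PAL2 without oastlB replicate 1 or 4 or serat2;1 replicate 2 or 3.

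In the early pathway, the chalcone synthase TT4 was higher by 0.67 ± 0.17 (adjusted p = 0.0305) and the chalcone isomerase TT5 by 0.53 ± 0.11 (adjusted p = 0.0077), both named after their values were seen. F3H, flavanone 3-hydroxylase, stood at 7.14, 7.10, 7.50 and 7.77 in oastlB and at 6.73, 6.08, 5.78 and 6.74 in serat2;1 (1.04 ± 0.21, adjusted p = 0.00517). The chalcone isomerase-like protein CHIL stood at 7.03, 7.31, 7.52 and 7.75 against 6.83, 6.30, 6.43 and 7.0 (0.76 ± 0.19, adjusted p = 0.038). TT7, the flavonoid 3'-hydroxylase, differed by 1.32 without passing the test (adjusted p = 0.06).

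In the late branch, the MYB activator PAP1 stood at 7.33, 6.89, 7.30 and 7.61 in oastlB and at 6.57, 5.98, 6.63 and 6.72 in serat2;1 (0.81 ± 0.20, adjusted p = 0.0378). AT5MAT, an anthocyanin malonyltransferase, stood at 7.51, 7.23, 7.65 and 7.85 against 6.93, 6.61, 6.24 and 6.80 (0.91 ± 0.22, adjusted p = 0.0245). The lines were separate in both genes, and oastlB lay above serat2;1 in 9 of the 21 members of the list, beside 2.59% of all probe sets. The dihydroflavonol reductase DFR and the anthocyanidin synthase LDOX were among them without passing the test, at 1.15 ± 0.37 and 1.13 ± 0.40 (adjusted p = 0.14 and 0.194). The PAP1 locus lies within 1000 locus numbers of SERAT2;1, where 6 of 202 probe sets were called (2.97%), beside 1.21% of all probe sets.

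The pigment calls depended on single arrays. The count of early flavonoid genes ran from 1 to 5 when 1 array was left out, and was 1 without oastlB replicate 4 and 2 without oastlB replicate 3 or serat2;1 replicate 2 or 3. CHIL lost its call in these cases and without oastlB replicate 2. Both late genes lost their calls without oastlB replicate 3 or 4 or serat2;1 replicate 2 or 3, and PAP1 also without oastlB replicate 1, whereas F3H was called in all 8 cases.

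The carotenoid, starch and clock lists held 1, 3 and 2 genes called higher in oastlB, beside 0.625% of all probe sets. Of 11 genes of carotenoid synthesis and the xanthophyll cycle 1 was called: BCH2, a beta-carotene hydroxylase, stood at 4.26, 4.89, 4.44 and 4.90 in oastlB and at 4.11, 3.75, 3.39 and 3.32 in serat2;1 (0.98 ± 0.20, adjusted p = 0.0088). ELIP1, a light stress protein of thylakoids named after its values were seen, was the 1 called of 15 high light and reactive oxygen markers (0.80 ± 0.20, adjusted p = 0.038), and its values overlapped. The marker list held no call without oastlB replicate 1, 2 or 4 or serat2;1 replicate 1, 2 or 3. ELIP2 differed by 0.19 and ZAT12 by 0.15, and neither passed the test.

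Of 10 starch turnover genes 3 were called higher, beside 0.625% of all probe sets, with a list median of 0.12. GBSS1, the granule-bound starch synthase that makes amylose, stood at 8.54, 8.36, 8.30 and 8.51 against 8.01, 7.29, 7.52 and 7.92 (0.74 ± 0.19, adjusted p = 0.0421). The plastid beta-amylase BAM1 stood at 7.02, 7.16, 6.97 and 6.86 against 6.65, 6.36, 6.47 and 6.59 (0.49 ± 0.12, adjusted p = 0.0271). BAM3, the main leaf beta-amylase, was higher by 0.42 ± 0.08 (adjusted p = 0.00358) and was named after its value was seen. The 3 genes stand on both sides of starch turnover, synthesis and breakdown, and no values of the lines overlapped. The count of 3 fell to 1 without oastlB replicate 1 or 2 or serat2;1 replicate 2 or 3.

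Of 22 clock genes and outputs 2 were called higher, beside 0.625% of all probe sets. LNK1, a light-induced coactivator of the clock, stood at 8.15, 8.32, 8.12 and 8.21 in oastlB and at 7.81, 7.40, 7.77 and 7.83 in serat2;1 (0.50 ± 0.09, adjusted p = 0.00338). CDF1, a repressor of flowering, was higher by 0.48 ± 0.12 (adjusted p = 0.0268), a call lost without any of 6 arrays (replicates 2, 3 and 4 of each line), while LNK1 kept its call throughout. The core genes LHY, CCA1, TOC1 and GI differed by 0.00, 0.28, -0.03 and 0.09 without passing the test.

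Some genes known to be induced by darkness and sugar starvation were called lower in oastlB. Of 13 such genes 2 were called lower, beside 0.582% of all probe sets, and the list median was -0.39. DIN10 (AT5G20250, dark inducible 10), of the raffinose synthase family, stood at 4.94, 5.64, 5.04 and 5.33 in oastlB and at 5.86, 7.48, 7.11 and 7.25 in serat2;1 (-1.69 ± 0.20, adjusted p = 9.81e-06). TPS8 (AT1G70290), of the trehalose-6-phosphate synthase family, stood at 4.84, 5.0, 4.73 and 4.87 against 5.41, 6.50, 5.8 and 6.10 (-1.09 ± 0.18, adjusted p = 0.000876). In both genes serat2;1 replicate 1 was the nearest to oastlB, and both were called without each of the 8 arrays in turn.

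The list was not uniform. BT2 (-1.05), TPS11 (-0.77) and AT3G15450 (-0.61) had negative differences that did not pass the test (adjusted p = 0.06, 0.13 and 0.24). ASN1, an asparagine synthetase of the dark response, differed by 0.00 ± 0.19, SEN1 by 0.09 and BCAT2 by 0.71. The mean level of the 13 genes was 4.45, 4.51, 4.41 and 4.56 in oastlB and 4.53, 5.12, 4.92 and 5.05 in serat2;1, where replicate 1 lay among the oastlB arrays.

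The largest called and non-overlapping differences downward included 3 further genes with a known enzyme role. PLA2A (AT2G26560), a patatin-like lipid acyl hydrolase of defence, stood at 6.87, 6.58, 6.58 and 6.40 in oastlB and at 7.78, 7.90, 7.86 and 7.58 in serat2;1 (-1.17 ± 0.14, adjusted p = 1.94e-05). BXL1, a beta-xylosidase of the cell wall, stood at 5.21, 5.76, 5.68 and 5.16 against 5.77, 6.39, 6.61 and 6.96 (-0.98 ± 0.19, adjusted p = 0.00351). ATPMEPCRB, the pectin methylesterase PME41, stood at 5.01, 4.96, 5.08 and 5.32 against 5.94, 6.54, 5.84 and 5.90 (-0.96 ± 0.17, adjusted p = 0.00145).

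For these 3 enzymes every oastlB array was below every serat2;1 array, although in BXL1 the highest oastlB value, 5.76, lay just under the lowest serat2;1 value, 5.77. AT2G30930 (-1.26 ± 0.18), AT1G78830 (-1.10 ± 0.16), AT5G28237 (-1.10 ± 0.21), AT5G55460 (-1.04 ± 0.23) and AT1G63350 (-1.03 ± 0.23) complete the 12 largest called differences downward with no overlap between the lines, with adjusted p from 9.49e-05 to 0.0161. AT5G55460 lost its call without oastlB replicate 1 or serat2;1 replicate 1 or 2, and AT1G63350 without oastlB replicate 2 or serat2;1 replicate 3 or 4.

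Glucosinolates are sulphur-rich defence compounds of this plant family. Of 10 genes of the indole branch 1 was called higher and 1 lower, beside 0.625% and 0.582% of all probe sets. MYB122, a regulator of the branch, stood at 2.32, 2.98, 2.67 and 2.74 in oastlB and at 2.31, 2.08, 2.15 and 1.78 in serat2;1 (0.60 ± 0.14, adjusted p = 0.0244). CYP83B1, which oxidises indole-3-acetaldoxime, stood at 9.40, 9.03, 9.18 and 9.24 against 9.69, 9.49, 9.54 and 9.49 (-0.34 ± 0.09, adjusted p = 0.0373). Neither gene's values overlapped, although for MYB122 the lowest oastlB value, 2.32, lay just above the highest serat2;1 value, 2.31. All MYB122 values were below the median probe set, at 4.75. MYB122 lost its call without oastlB replicate 2 or 4 or serat2;1 replicate 2 or 4, and CYP83B1 without any of 6 arrays (oastlB replicates 2 to 4, serat2;1 replicates 1 to 3). PEN2, the myrosinase that acts on indole glucosinolates, differed by -0.38 ± 0.07 (adjusted p = 0.00156). It was named after its value was seen because it is the other called gene near the OASB locus. There 2 of 228 probe sets were called (0.877%), beside 1.21% of all probe sets. None of 15 aliphatic glucosinolate genes was called, although all 15 had positive differences (median 0.21).

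Many stress and photosynthesis lists held no called gene. None was called among 29 antioxidant enzymes, 13 of the plastid thioredoxin system, 18 of light harvesting, 19 of chlorophyll synthesis, 18 of the Calvin-Benson cycle, 30 of jasmonate, 21 of salicylate and immunity, 29 of abscisic acid, cold and dehydration, 9 of shade and 7 of nitrate assimilation. Their medians lay between -0.23 (nitrate assimilation) and 0.25 (abscisic acid, cold and dehydration). PR1, a marker of salicylate signalling, was at 2.59, 5.17, 4.35 and 5.47 in oastlB and at 7.55, 6.42, 5.05 and 4.62 in serat2;1. These overlapping values gave -1.51 ± 0.89 (adjusted p = 0.574). The mean level of the 21 salicylate and immunity genes was 4.88 to 5.03 in oastlB and 5.11 to 5.33 in serat2;1. Of the 21, 3 were lower in oastlB without overlap, beside 2.52% of all probe sets, and 7 had differences above 0.

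**Figure D3:**
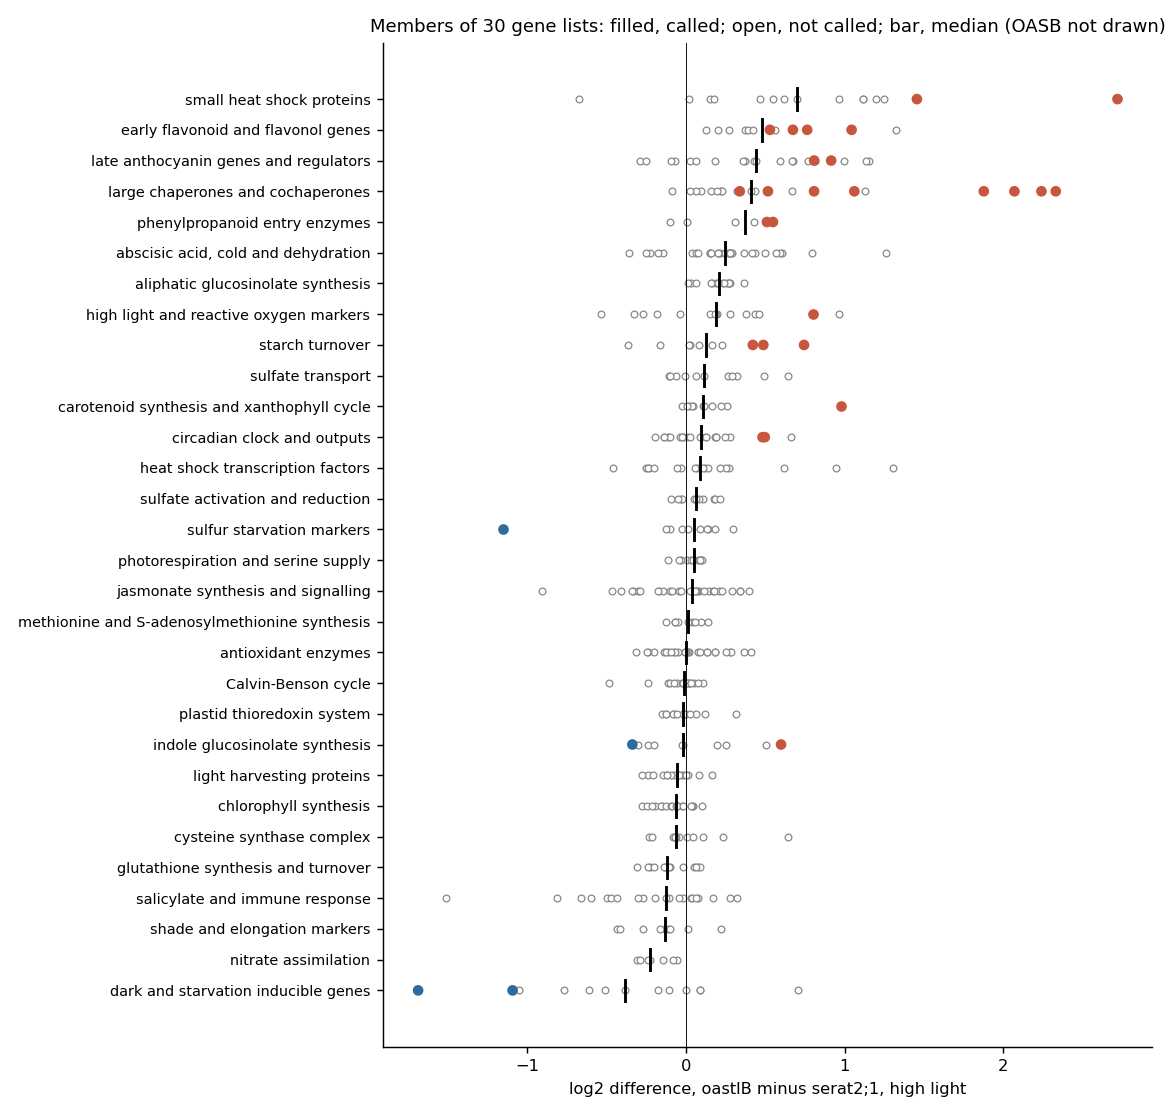
Log2 differences in high light (x axis, oastlB minus serat2;1) of the members of 30 gene lists, 1 point per gene, with filled points called and a black bar at the list median. The largest median is that of the small heat shock proteins at 0.70 and the lowest that of the dark and starvation inducible genes at -0.39.

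Marker lists of 8 tissues and cell types showed no called gene. Leaf mesophyll markers had mean levels of 11.60 to 11.72 in oastlB and 11.55 to 11.74 in serat2;1, while flower markers stood at 2.23 to 2.51 and 2.29 to 2.63 and all 7 lay below the median probe set. The medians of the 8 lists lay between -0.16 and 0.13. In such whole-shoot samples fewer cells of a type and less RNA per cell cannot be told apart. Pearson's r across probe sets was 0.984 to 0.991 within the oastlB arrays, 0.986 to 0.990 within serat2;1 and 0.983 to 0.990 between them. No array repeated another.

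In normal light, on other arrays, the 2 lines differed in 7 probe sets (0.0252%), 1 higher (0.00359%) and 6 lower (0.0216%) in oastlB. OASB was among them with -4.56 ± 0.14 (adjusted p = 5e-23). Only OASB and AT2G14255, the latter named after its values were seen, were called in both lights. AT2G14255 differed by -0.35 in high light and by -0.45 ± 0.09 in normal light (adjusted p = 0.0468).

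The other normal light genes included some of defence and isoprenoid metabolism. PR5, a thaumatin-like defence protein, stood at 7.58, 7.37, 7.39 and 7.27 in oastlB and at 8.30, 9.19, 8.29 and 9.86 in serat2;1 in normal light (-1.51, adjusted p = 0.049). The cis-prenyltransferase cPT5 differed by -1.3 (adjusted p = 0.0146), the farnesoic acid methyltransferase FAMT by -1.26 (adjusted p = 0.0468) and CYP79B2, which makes indole-3-acetaldoxime, by -0.62 (adjusted p = 0.049). The levels of cPT5 were low, with means of 1.24 in oastlB and 2.54 in serat2;1, where the median probe set stood at 4.75. AT4G20230 was higher by 1.03 (adjusted p = 0.0468). In high light the same genes differed by -0.81, -0.50, 0.07, -0.02 and -0.16, and none passed the test.

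For the genes called in high light, the median differences in normal light were small, but the higher genes leaned to negative values there. The median difference of the 174 higher genes was 0.57 in high light and -0.06 in normal light, where 55 of the 174 were above 0. For the 162 lower genes it was -0.58 and 0.00, with 81 below 0. The test of the difference between the lights, high light minus normal light, called 107 probe sets (0.385%), 69 higher (0.248%) and 38 lower (0.137%). Of the 336 probe sets called in high light it called 89, of which 57 were higher and 32 lower in oastlB. The high light arrays enter both contrasts, so this count is not independent of the high light calls.

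**Figure D4:**
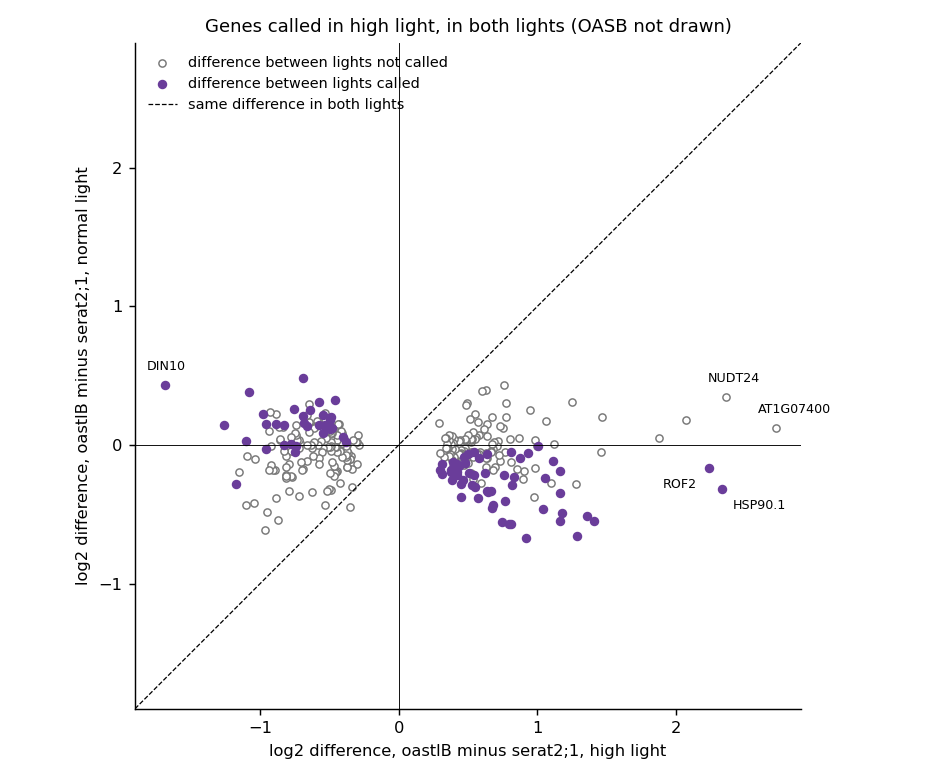
The probe sets called in high light, OASB excepted, with the log2 difference in high light on the x axis and in normal light on the y axis. Purple points are called for the difference between lights, and the dashed line marks equal differences. DIN10 is at -1.69 and 0.43, HSP90.1 at 2.33 and -0.32.

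For the chaperones the lines lay together in normal light. HSP90.1 stood at 3.92, 3.35, 2.71 and 3.85 in oastlB and at 3.98, 3.67, 3.66 and 3.79 in serat2;1, and the difference between lights was 2.65 ± 0.56 (adjusted p = 0.0221). For ROF2 it was 2.40 ± 0.54 (adjusted p = 0.0341) and for TIN1 1.95 ± 0.42 (adjusted p = 0.0236). NUDT24, HSP70, HSP101 and AT1G07400 had differences between lights of 2.01, 1.83, 1.89 and 2.59 that did not pass the test (adjusted p = 0.0894, 0.0871, 0.163 and 0.166). 3 of the 21 large chaperones were called for it.

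Some pigment and starch genes were called for the difference between lights. F3H differed by -0.46 in normal light, which did not pass the test, and by 1.04 in high light, and the difference between lights was 1.5 ± 0.29 (adjusted p = 0.015). AT5MAT (1.58 ± 0.31, adjusted p = 0.0146), PAP1 (1.37 ± 0.29, adjusted p = 0.0225) and GBSS1 (1.3 ± 0.27, adjusted p = 0.0221) were called in the same way. None of these genes was called in normal light, where the medians were -0.25 for the early flavonoid list and -0.37 for the late list. GolS1, a galactinol synthase of the raffinose pathway, was called for the difference between lights alone (1.91 ± 0.35, adjusted p = 0.0116). It stood at 6.16, 5.16, 4.48 and 5.22 in oastlB and at 6.28, 6.08, 6.45 and 6.89 in serat2;1 in normal light, and at 7.55, 8.31, 7.63 and 7.39 against 7.24, 6.92, 6.85 and 6.90 in high light.

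DIN10 was called with the opposite sign. Its normal light values of 6.66, 6.62, 6.58 and 6.99 in oastlB were above the 6.30, 6.38, 6.27 and 6.16 of serat2;1 without passing the test (0.43, adjusted p = 0.645), and the difference between lights was -2.12 ± 0.28 (adjusted p = 0.000273). AT2G30930 (-1.40 ± 0.25), BXL1 (-1.20 ± 0.26) and AT5G22920, a RING zinc finger protein (-1.46 ± 0.30), were called likewise, with adjusted p of 0.00911, 0.0314 and 0.022.

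**Figure D5:**
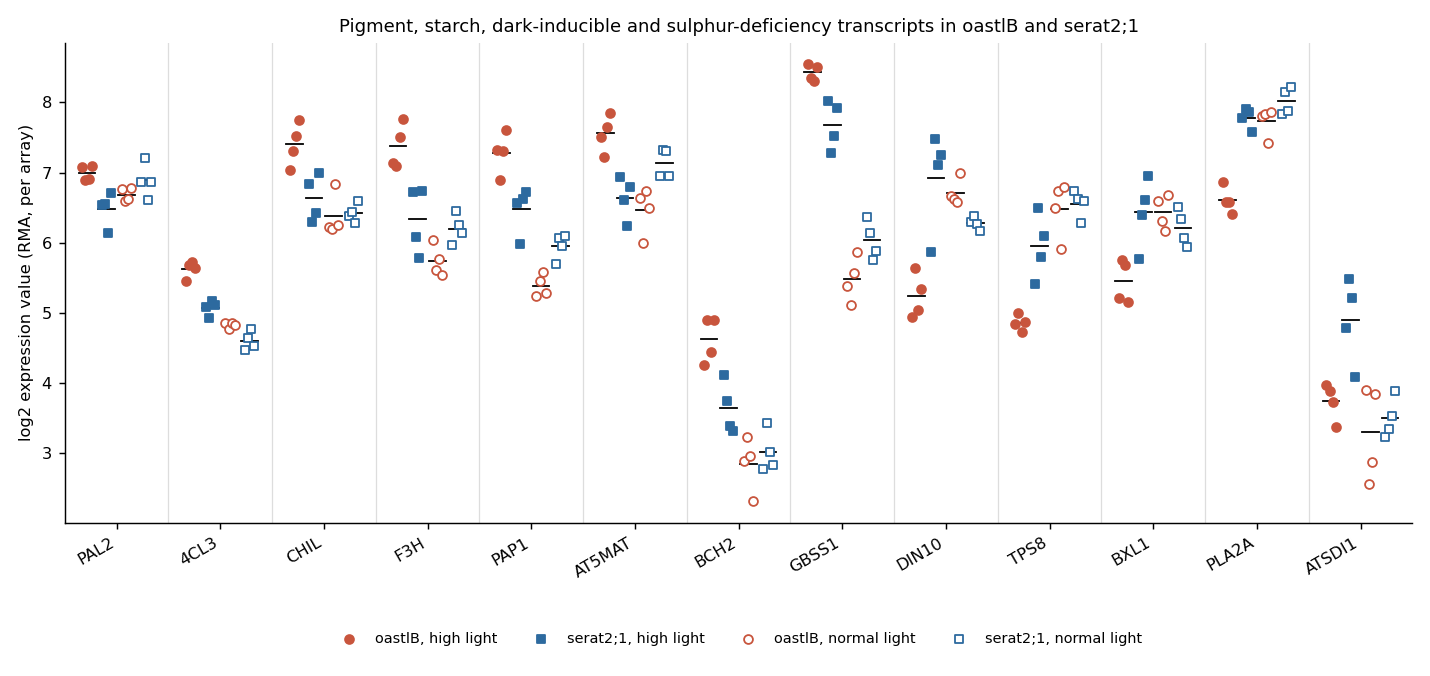
Log2 values of 13 pigment, starch, dark-inducible and other genes, 1 point per array and a black bar at each group mean. Filled points are high light and open points normal light. GBSS1 is at 8.30 to 8.54 in oastlB and 7.29 to 8.01 in serat2;1 in high light, and DIN10 at 4.94 to 5.64 and 5.86 to 7.48.

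WT was in neither group of the contrast, although its arrays entered the shared spread, and its level lay between the lines for most of the called genes. These genes were picked for a difference between the lines, so the mean of any other group would tend to lie between them. The same share over all probe sets was not computed. In high light the WT mean was between the oastlB and serat2;1 means for 140 of the 174 higher genes and 147 of the 162 lower genes. Among the higher genes it was nearer oastlB for 89 and nearer serat2;1 for 85. Among the lower genes it was nearer oastlB for 109 and nearer serat2;1 for 53. DIN10 stood at 5.51 ± 0.07 (SD) in WT, near the oastlB arrays, and F3H at 6.11 ± 0.22, near the serat2;1 arrays.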

How the data were processed

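Biotin-labelled cRNA from shoots was measured on Affymetrix arrays with 1 colour, per the labels. The deposited table holds log2 values from RMA, per the submitters' processing notes. RMA corrects background, equalises the distribution of intensities across arrays and fits 1 value per probe set, which can compress differences. The sources used here give neither the array type nor the probe set definition nor the build. The table holds no detection calls, so the number of arrays limits precision. All 40 columns matched 1 sample each. Symbols came from RefSeq's TAIR10.1 table for 27241 of 27826 loci, and 585 keep their code.

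limma 3.58.1 (R 4.3.3) was fitted to all 40 arrays with group means, giving 30 residual and 3.90 prior degrees of freedom. Each of 3 contrasts was tested two-sided and adjusted over all probe sets by Benjamini-Hochberg. The fit was tested on simulated data. The members, the 30 gene lists and 8 marker lists were chosen with earlier results of these data known. Named genes were called and not overlapping (12 largest per direction, 2 per direction and list, 5 per direction in normal light), called for the difference between lights (5 per direction), or cysteine synthase members. Alternatives were another normalization, brighter probe sets, array weights, another prior, a replicate block, only the groups compared, no neighbours of the 2 loci, and each array left out.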

Additional observations from a re-analysis of the deposited data

Results flagged for a closer look

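In 56 named genes, 112 groups of 4 high light values were examined for a sample far from the other 3, and 10 were found. For independent random groups chance gives about 1 in 20. Many of these genes were picked on the same values and share arrays, so that rate is no test here. Of these, 5 were heat shock genes in oastlB replicate 2: AT1G07400 at 8.98, HSP90.1 at 9.49, ROF2 at 10.46, HSP101 at 8.79 and HSP70 at 11.70. AT5G55460 was low in oastlB replicate 1 (5.39), and OASA1 was high there (8.46). ATPMEPCRB was high (6.54) and LNK1 low (7.40) in serat2;1 replicate 2. PR5 was high in serat2;1 replicate 1 (9.09).

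The line difference itself differed between high and normal light, by limma's test, in 19 named genes. It was higher in high light for HSP90.1 (2.65), ROF2 (2.40), TIN1 (1.95), AT1G43910 (1.94), GolS1 (1.91), AtCDC48B (1.67), AT5MAT (1.58), F3H (1.5), PAP1 (1.37), GBSS1 (1.3), PAL2 (0.71) and LNK1 (0.56). It was lower for DIN10 (-2.12), AT5G22920 (-1.46), AT2G30930 (-1.40), BXL1 (-1.20), AT4G20230 (-1.18), AT1G78830 (-1.13) and PLA2A (-0.89).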

How the results depend on the processing

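No named gene called in high light changed sign in any of 16 settings. The 37 called named genes were picked for values that did not overlap between the lines. Leaving out 1 array, weighting arrays or fitting only the groups compared could therefore not turn their sign. Fitting only the groups compared, with a spread from few arrays, left 0 higher and 1 lower call in high light (OASB), 0 and 1 in normal light and 5 and 2 for the difference between lights. The other 36 called named genes then had adjusted p of 0.0574 to 0.467. Array weights gave 79 and 96 calls in high light and 3 and 15 in normal light. Brighter probe sets gave 0 and 10 in normal light and 139 and 89 for the difference between lights, where a trended robust prior gave 66 lower calls. Without neighbours of the 2 loci, and without OASB itself, normal light held 0 and 1. Of the probe sets left out, only OASB was called in normal light. The other lost calls went with the repeated adjustment of p, not with neighbours of the loci. Leaving out 1 array gave 56 to 213 higher and 70 to 214 lower calls in high light, lowest without serat2;1 replicate 2. There were 83 and 99 without oastlB replicate 4 and 101 and 95 without serat2;1 replicate 3. The ranges were 0 to 3 and 1 to 21 in normal light, and 13 to 93 and 10 to 89 for the difference between lights. Of 37 called named genes 19 kept the call without each of the 8 high light arrays. Replicate numbers did not pair the samples, since deviations of same-numbered samples correlated at -0.06 to 0.08, and a replicate block gave 190 and 174 calls in high light, 2 and 3 in normal light and 85 and 48 for the difference between lights.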
